A study of Mus musculus with 13 samples.

Results

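Gli3 binding that lay apart from every called binding site of 3 ventral transcription factors was examined in neural progenitors that had been differentiated from embryonic stem (ES) cells of the mouse. The regions were chosen by overlap: they were the peaks of the Gli3 list that shared no base with any peak of Nkx2.2, Nkx6.1 or Olig2. There were 1202 of them among 1888 Gli3 peaks (63.7%, 95% exact binomial interval 61.4 to 65.8), and 686 Gli3 peaks shared at least 1 base with a ventral peak. Their distances from ventral peaks follow from that choice and are given as a description. Their places in the list, spacing and spread over chromosomes are set beside the 686 other Gli3 peaks.

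The assay was ChIP-seq, in which DNA bound by a factor is precipitated with an antibody and sequenced. Gli3 was precipitated with an anti-FLAG antibody from a derivative of the V6.5 line (C57BL/6 X 129/sv) in which a 3xFLAG-Avi tag had been inserted at the Gli3 initiation codon. Nkx2.2, Nkx6.1 and Olig2 were precipitated with antibodies to the factors from the line YFP3.1 or its derivative Rosa26-Gli1FLAG, both on a mixed background (Swiss Webster, 129 Sv and C57BL6/J). All cultures spent 2 days in suspension and 3 days with 500 nM retinoic acid. The ventral cultures also received 160 to 800 nM of Smoothened agonist, a compound that switches on Hedgehog signalling, and the Gli3 cultures, called dorsal in the labels, did not. Gli3 had 1 ChIP library and each ventral factor 2, so the factor, the culture and the cell line cannot be told apart in any value that sets Gli3 beside the ventral factors.

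Gli3 is a zinc finger transcription factor at the end of the Hedgehog pathway. Without a Hedgehog signal much of it is cut to a shorter form that keeps the amino-terminal end and represses target genes, and with the signal the cutting is held back. In the neural tube, Gli3 repressor is known for holding ventral genes down in dorsal progenitors, whereas Nkx2.2, Nkx6.1 and Olig2 are ventral factors, 2 of them homeodomain proteins and Olig2 a basic helix-loop-helix protein, that repress genes of neighbouring progenitor domains.

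The files gave 4 lists of peaks of 300 bp, with 1888 Gli3, 5551 Nkx2.2, 4094 Nkx6.1 and 11747 Olig2 peaks, and tables of coverage around the ventral peaks. No list was in coordinate order, and none carried a score or a gene. Positions are those of the mouse build mm9. Which genes lie at the regions, and their bases, were not analysed here. With 1 Gli3 list there was no replicate, so no test was made. Intervals cover counting error only, and peaks of 1 list share a library and often a locus.

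The Gli3 peaks away from ventral peaks mostly lay 10 kb or more from the nearest one. The median distance between centres was 24487.5 bp (95% interval of the median 21521 to 28171), with 25% of the regions within 5716.5 bp and 75% within 66689.5 bp. The distances spread over 4 classes. Of the 1202 regions, 138 (11.5%, 9.73 to 13.4) had a ventral centre within 1000 bp, 251 (20.9%, 18.6 to 23.3) at 1 to 10 kb, 639 (53.2%, 50.3 to 56.0) at 10 to 100 kb and 174 (14.5%, 12.5 to 16.6) beyond 100 kb. Close to the limit set by the rule the numbers thinned out quickly: 43 regions lay at 300 to 400 bp, 29 at 400 to 500 bp and 7 at 900 to 1000 bp.

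The ventral list that came nearest was most often that of Olig2, the longest list. An Olig2 peak was nearest for 622 regions (51.7%), an Nkx2.2 peak for 424 (35.3%) and an Nkx6.1 peak for 156 (13.0%), while the lists make up 54.9%, 25.9% and 19.1% of all 21392 ventral peaks. Among the 138 regions within 1000 bp the split was 47.8% Olig2, 42.0% Nkx2.2 and 10.1% Nkx6.1, and among the 174 beyond 100 kb it was 54.6%, 31.6% and 13.8%. Counted per 1000 peaks of a list, Nkx2.2 had 12.1 of the regions within 1000 bp, Olig2 6.90 and Nkx6.1 5.62. Per 1000 peaks Nkx2.2 also had the most within 10 kb, at 33.1, against 22.2 for each of the others. The median distance was 50404 bp to Olig2, 79002.5 bp to Nkx2.2 and 205225 bp to Nkx6.1.

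**Figure D1:**
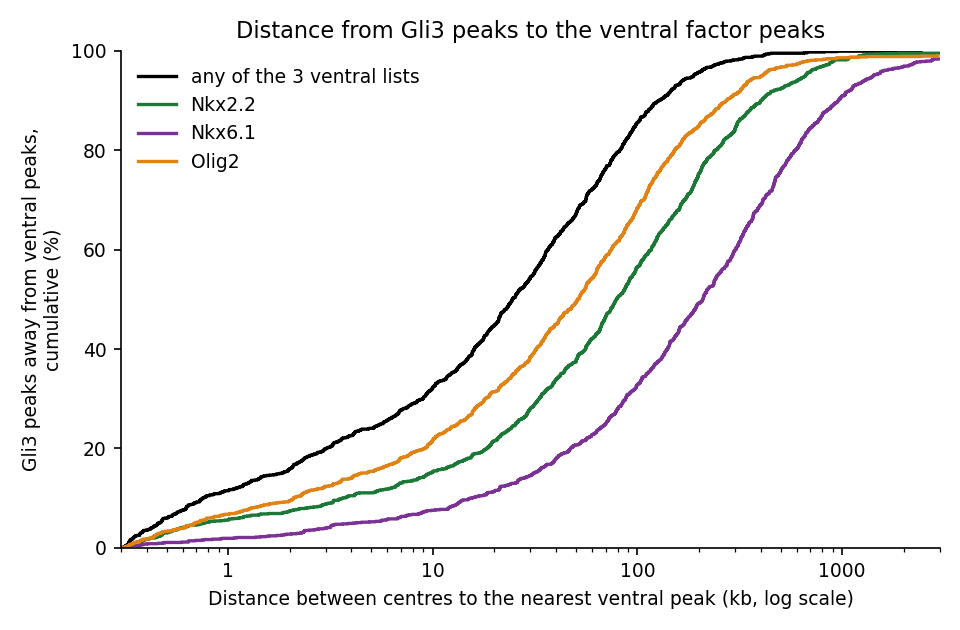
Cumulative share of the 1202 Gli3 peaks away from ventral peaks (vertical axis, %) by the distance between centres to the nearest peak of any ventral list and of each list (horizontal axis, kb, log scale). The curve for any list passes 11.5% at 1 kb, and Olig2 lies above Nkx2.2 and Nkx6.1 at 10 and 100 kb.

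The regions just inside and just outside the rule differed by a few bases. The 5 nearest to a ventral peak lay on chromosome 14 at 64204733 to 64205032, 1 bp from an Nkx6.1 peak, on chromosome 2 at 104656268 to 104656567, 9 bp from Olig2, on chromosome 8 at 72520438 to 72520737, 11 bp from Nkx2.2, on chromosome 4 at 148265347 to 148265646, 13 bp from Olig2, and on chromosome 9 at 59010872 to 59011171, 16 bp from Olig2. Among the other Gli3 peaks, the 5 with the smallest overlap shared 1, 1, 5, 9 and 11 bp with a ventral peak. The division at 1 shared base therefore falls within a continuous range of distances.

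At the other end, 1 region on chromosome X, at 120775078 to 120775377, was 2429194 bp from the nearest ventral peak. The next farthest was on chromosome 4 at 16090210 to 16090509, 946740 bp away, followed by regions on chromosomes X, 1 and 6 at 818847, 675549 and 674468 bp. For all 5 the nearest ventral peak was of Olig2. Their places in the list ran between 269 and 1844, so they stood neither together at its head nor at its end.

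Around the regions there was a mean of 0.577 ventral peaks within 10 kb and 3.25 within 100 kb. Around the other Gli3 peaks the means were 0.886 and 4.35, leaving out ventral peaks that shared bases with them. The numbers for the regions follow from the same distances and are a description. Of the 138 regions within 1000 bp of a ventral centre, 113 had 1 ventral factor there, 17 had 2 and 8 had 3, so 5.80% (2.54 to 11.1) had all 3. Of the 686 other Gli3 peaks, counted with the ventral peaks that shared their bases, 463 had 1, 142 had 2 and 81 had 3. That made 11.8% (9.49 to 14.5) with all 3, and the intervals overlap. In 20 of these 138 cases (14.5%, 9.08 to 21.5) the nearest ventral peak itself shared bases with another Gli3 peak.

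The place of a peak in the Gli3 list went along with its being away from ventral peaks. With the list cut into 10 equal bins in its deposited order, 96 of 189 peaks (50.8%, 43.4 to 58.1) were away in bin 1 and 150 of 188 (79.8%, 73.3 to 85.3) in bin 10. Cut into 3 equal parts, it had a share of 55.2% (51.3 to 59.2) in the first part, 62.2% (58.2 to 66.0) in the middle part and 73.6% (70.0 to 77.0) in the last. The median place was 1048 (999 to 1107) for peaks away from ventral peaks and 770.5 (713 to 844) for peaks at them. With chromosomes 8 and Y left out, bins 1 and 10 gave 50.9% and 80.0%.

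List by list, the share away was higher in the last part of the Gli3 list than the first, but for Nkx2.2 the intervals overlapped. The share of Gli3 peaks away from Olig2 was 68.9% (65.1 to 72.5) in the first part of the list and 90.6% (88.1 to 92.8) in the last. For Nkx6.1 the values were 87.5% (84.6 to 89.9) and 97.3% (95.7 to 98.4). For Nkx2.2 they were 76.0% (72.5 to 79.3) and 80.3% (77.0 to 83.3), whose intervals overlap. In bins 1 and 10 the share away from Nkx2.2 was 75.1% (68.3 to 81.1) and 83.5% (77.4 to 88.5), also with overlapping intervals. Whether the ventral lists differ from each other in this was not tested.

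**Figure D2:**
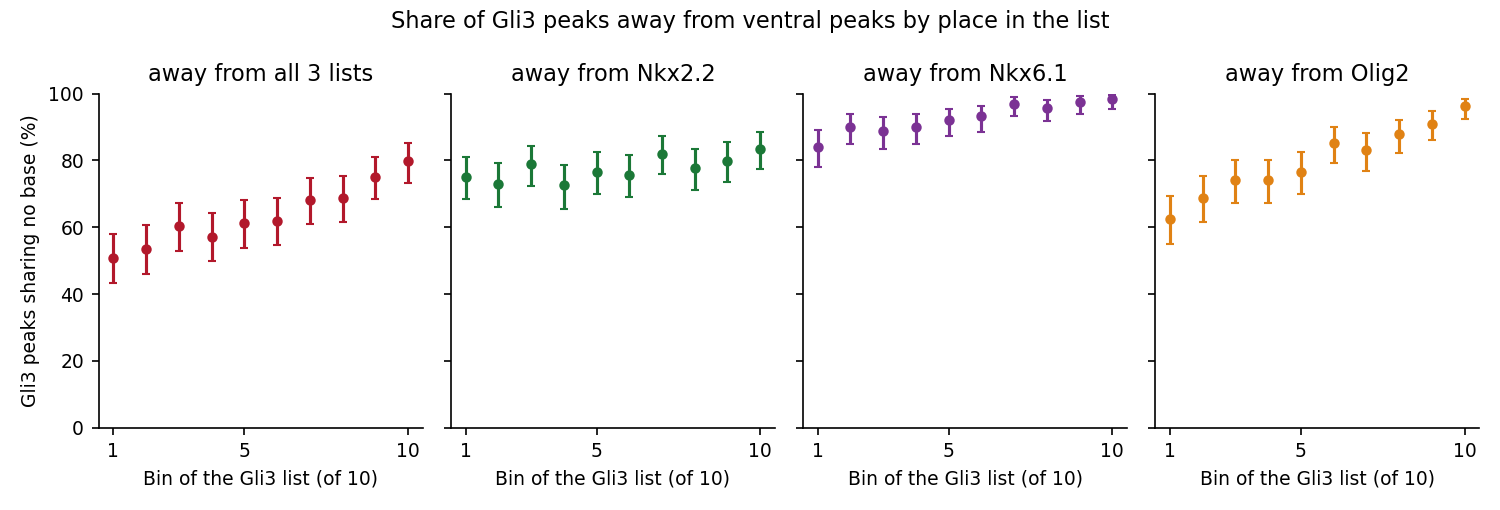
Share of Gli3 peaks that share no base with any of the 3 ventral lists, or with a single list (vertical axis, %), in each of 10 equal bins of the Gli3 list in its deposited order (horizontal axis). Points are shares and bars are 95% exact binomial intervals. Away from all 3 lists, the share is 50.8% in bin 1 and 79.8% in bin 10.

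What orders the Gli3 list is not given. In the ventral lists, for which coverage tables exist, peaks were listed roughly from high to low coverage in the first of 3 column blocks, with a rank correlation of place and coverage across peaks of -0.83 (Nkx2.2), -0.89 (Nkx6.1) and -0.93 (Olig2). The correlation was weaker in block 2, at -0.53, -0.52 and -0.63 in the same order, and in block 3 it was 0.28, -0.14 and -0.051. The blocks name no library. Whether the Gli3 list runs from strong to weak peaks in the same way was not tested, since no table of Gli3 coverage was used. The distance of the regions from ventral peaks had no steady course along the list, with medians of 22034 bp (17525 to 29413), 26412 bp (21884 to 33761) and 23936 bp (20879 to 29809) in the first, middle and last part. By distance, the median place was 1041 (798 to 1207) within 1000 bp and 1196 (1044 to 1287) beyond 100 kb.

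The first 5 regions of the list lay 673 to 24622 bp from a ventral peak. They lay on chromosome 7 at 146485378 to 146485677 (place 3, 16574 bp from an Olig2 peak), on chromosome 4 at 150288401 to 150288700 (place 8, 673 bp from Olig2) and at 116768392 to 116768691 (place 12, 24622 bp from Nkx2.2), on chromosome 13 at 63667604 to 63667903 (place 13, 1297 bp from Olig2) and on chromosome 2 at 146785010 to 146785309 (place 14, 2868 bp from Olig2). The last 5, at places 1884 to 1888, were 8616, 227685, 1235, 9274 and 39058 bp from a ventral peak, on chromosomes 1, 11, 12, 6 and 11.

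By chromosome, the Gli3 peaks away from ventral peaks were spread much as the other Gli3 peaks were. Chromosome 8 held 172 of the regions (14.3%, 12.4 to 16.4), 96 Gli3 peaks at ventral peaks (14.0%, 11.5 to 16.8) and 5.60% of the ventral peaks. Both kinds of Gli3 peak were thus more frequent there than ventral peaks, and their intervals overlapped. On chromosome 8 every stretch of 10 Mb up to 130 Mb held some of the regions, from 3 in 2 of the stretches to 30 between 120 and 130 Mb, beside 14 Gli3 peaks at ventral peaks and 129 ventral peaks in the last. Chromosome 11 held 8.74% (7.20 to 10.5) of the regions and 7.29% (5.46 to 9.50) of the other Gli3 peaks. Of all Gli3 peaks on a chromosome, the share away ran from 46.4% (33.0 to 60.3) on chromosome 14 to 68.8% (57.3 to 78.9) on chromosome 3 among the autosomes. On 18 of the 19 autosomes the interval held the share over all chromosomes, and chromosome 14 was the exception.

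The sex chromosomes stood apart in number. All 12 Gli3 peaks on chromosome Y were away from ventral peaks, and the 3 ventral lists together had 1 peak on that chromosome, of Nkx2.2. On chromosome X, 11 of 14 Gli3 peaks were away (78.6%, 49.2 to 95.3), at a median distance of 197291 bp. The autosomes had medians between 16855 bp on chromosome 17 and 39544 bp on chromosome 18.

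**Figure D3:**
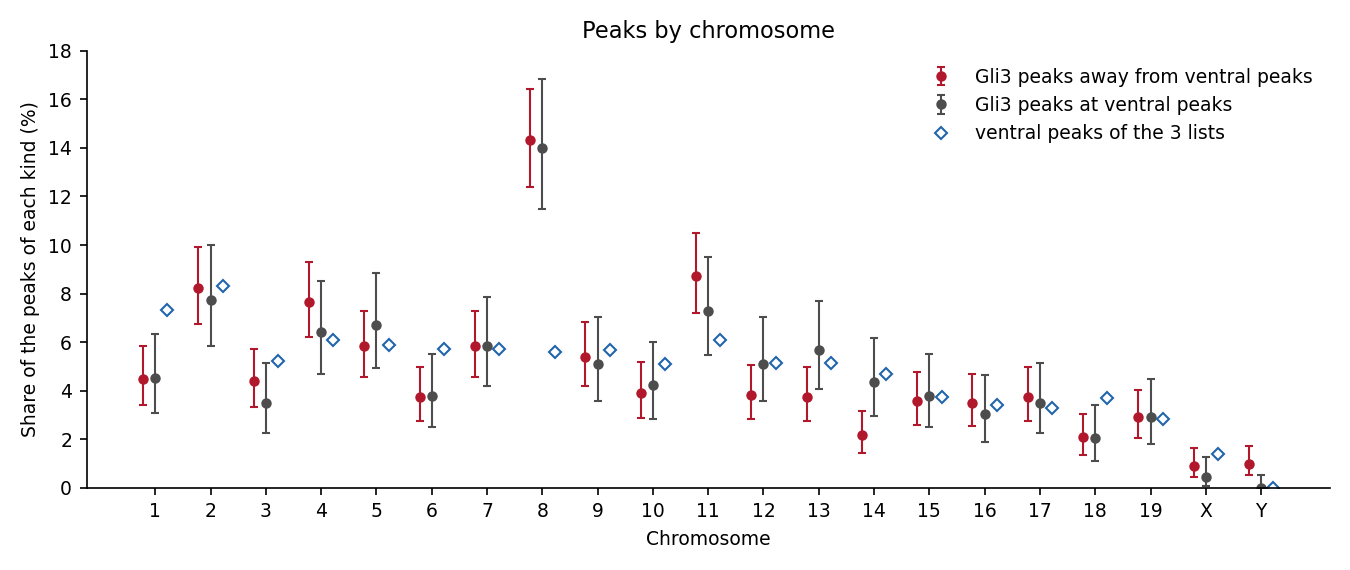
Share of the Gli3 peaks away from ventral peaks, of the Gli3 peaks at ventral peaks and of the ventral peaks (vertical axis, % of the peaks of each kind) on each chromosome (horizontal axis). Bars are 95% exact binomial intervals for the Gli3 peaks. Both kinds of Gli3 peak reach about 14% on chromosome 8, where 5.60% of the ventral peaks lie.

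Most of the regions stood alone, and some came in tight groups. Of the 1202 regions, 974 had no other Gli3 peak within 10 kb. The median distance to the nearest other Gli3 peak was 132958 bp (120649 to 153692) for Gli3 peaks away from ventral peaks and 152991.5 bp (129942 to 194213) for those at them. Another Gli3 peak lay within 1000 bp of 11.6% (9.89 to 13.6) of the regions, against 7.14% (5.33 to 9.33) of the other Gli3 peaks. Within 10 kb the shares were 19.0% (16.8 to 21.3) and 16.8% (14.0 to 19.8), whose intervals overlap. Bases were shared with another Gli3 peak by 31 of the regions (2.58%, 1.76 to 3.64) and 19 of the other Gli3 peaks (2.77%, 1.68 to 4.29). Linked over gaps of up to 10 kb, 155 of the regions formed 69 groups with no Gli3 peak at a ventral peak, and 73 were in 57 groups with one or more of them. Where a neighbour lay within 10 kb, the nearest was itself away from ventral peaks for 74.6% (68.4 to 80.1) of the regions and for 51.3% (41.8 to 60.7) of the Gli3 peaks at ventral peaks. Over all Gli3 peaks the share away was 63.7%. Neighbouring peaks share their surroundings, so these counts are not independent of each other.

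The 100-kb window with the most regions was on chromosome Y, from 2800001 to 2900000. It held 8 of them, no other Gli3 peak and no ventral peak, and 2 of its peaks overlapped, at 2885728 and 2885794. Their places ran between 127 and 1533. The next window, on chromosome 10 from 126700001 to 126800000, held 5 of the regions within 2579 bp, at 126776465, 126776949, 126777641, 126778241 and 126778744, in places 491, 979, 207, 1709 and 843. These 5 were 27731 to 30010 bp from the nearest ventral peak, although the window also held 3 Nkx2.2 peaks, 3 Olig2 peaks and 1 Gli3 peak at an Nkx2.2 peak.

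A window on chromosome 13, chosen after its values were seen, looked otherwise. From 63655865 to 63674919 it held 7 Gli3 peaks, the most in any group. Of these, 4 were away from ventral peaks, at 63664473, 63667604, 63669269 and 63674620 in places 217, 13, 236 and 84, and the other 3, in places 432, 139 and 795, were at ventral peaks. In this window of 100 kb the 4 regions were 347 to 4428 bp from a ventral peak, and it held 2 Nkx2.2, 2 Nkx6.1 and 5 Olig2 peaks.

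**Figure D4:**
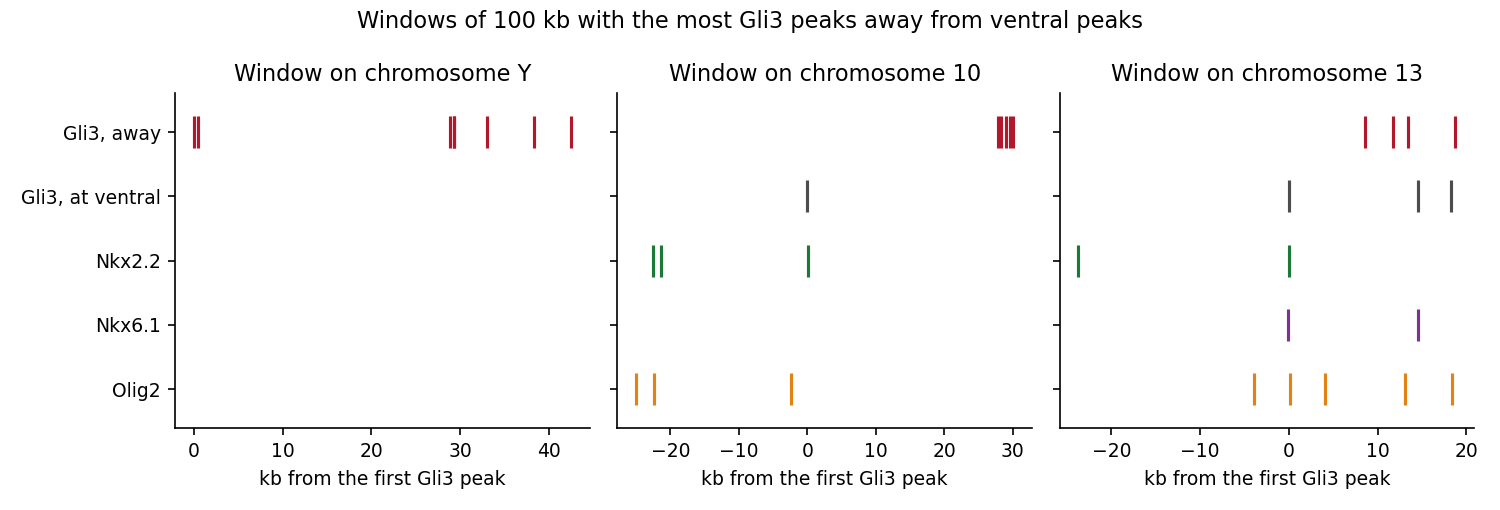
Positions of peaks (vertical ticks) in 3 windows of 100 kb, as the distance from the first Gli3 peak of the window (horizontal axis, kb), with 1 row each for Gli3 peaks away from ventral peaks, Gli3 peaks at ventral peaks and the 3 ventral lists. On chromosome 10, 5 Gli3 peaks away from ventral peaks stand within 2579 bp, and on chromosome 13 both kinds of Gli3 peak stand beside ventral peaks.

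Absence from a ventral list does not say that ventral coverage was absent. For Gli3 peaks 300 to 1500 bp from a ventral centre, the ventral tables, which reach 2000 bp to each side, show coverage at the place of the Gli3 peak. Most of the regions lay beyond this reach, among them the 639 at 10 to 100 kb and the 174 beyond 100 kb. No ventral coverage could be read for those. It was read within 250 bp of the Gli3 centre and at the mirrored place, equally far on the other side of the ventral peak, in the authors' units, whose scaling is not given. At 500 to 1500 bp from a ventral centre, coverage was mostly higher at the Gli3 place. In block 1 of the Nkx2.2 table the median was 5.81 units at 46 Gli3 places and 1.09 at the mirrored places, and it was higher at the Gli3 place in 43 of 46 (93.5%, 82.1 to 98.6). The ventral peaks themselves had 14.3 units at their centres, so the Gli3 places lay between the peak and its surroundings. In block 2 the medians were 1.85 and 1.15 units, higher at the Gli3 place in 32 of 46 (69.6%, 54.2 to 82.3), with 4.14 at the centres.

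In the Olig2 table the block 1 medians were 2.16 units at 64 Gli3 places and 1.18 at the mirrored ones, with the Gli3 place higher in 47 of 64 (73.4%, 60.9 to 83.7). In block 2 they were 2.85 and 0.877 units, higher in 55 of 64 (85.9%, 74.98 to 93.4). In the Nkx6.1 table, with 14 such places, the block 1 medians were 2.95 and 0.978 units, higher in 12 of 14 (85.7%, 57.2 to 98.2), and the block 2 medians 2.28 and 1.13 units, higher in 11 of 14 (78.6%, 49.2 to 95.3). The centres of the same ventral peaks had 10.7 units in the Olig2 table and 10.0 in the Nkx6.1 table in block 1. Some Gli3 peaks were counted in more than 1 table, so the 3 sets of places are not independent. Those on chromosome 9 at 69615093 and 61218810 and on chromosome 8 at 72240317 were in all 3 sets.

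Block 3, whose medians at the ventral centres and at the Gli3 places were the lowest of the 3 blocks in each table, also had higher medians at the Gli3 places than at the mirrored places. In the Nkx2.2 table it had 1.40 units at the Gli3 places and 0.844 at the mirrored places, higher in 34 of 46 (73.9%, 58.9 to 85.7), and 1.51 at the ventral centres. For Olig2 the values were 1.16 and 0.745, higher in 47 of 64, and for Nkx6.1 they were 1.58 and 0.951, higher in 8 of 14 (57.1%, 28.9 to 82.3). In the Olig2 and Nkx6.1 tables block 3 was no lower at the Gli3 places than at the ventral centres, with 1.05 and 1.13 units there. At Gli3 places found in both the Nkx6.1 and the Olig2 table, block 3 had equal or close values. On chromosome 9 both had 0.843 units at 37261839 and 1.24 at 74034616, while block 1 had 25.6 and 39.7 units, and 4.04 and 5.74. Block 3 is therefore not taken as 2 separate readings in these tables. The labels name 1 input library for Nkx6.1 and Olig2 together, but tie no block to a library. Whether block 3 is an input library is not given, and its part in the values of blocks 1 and 2 was not tested.

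**Figure D5:**
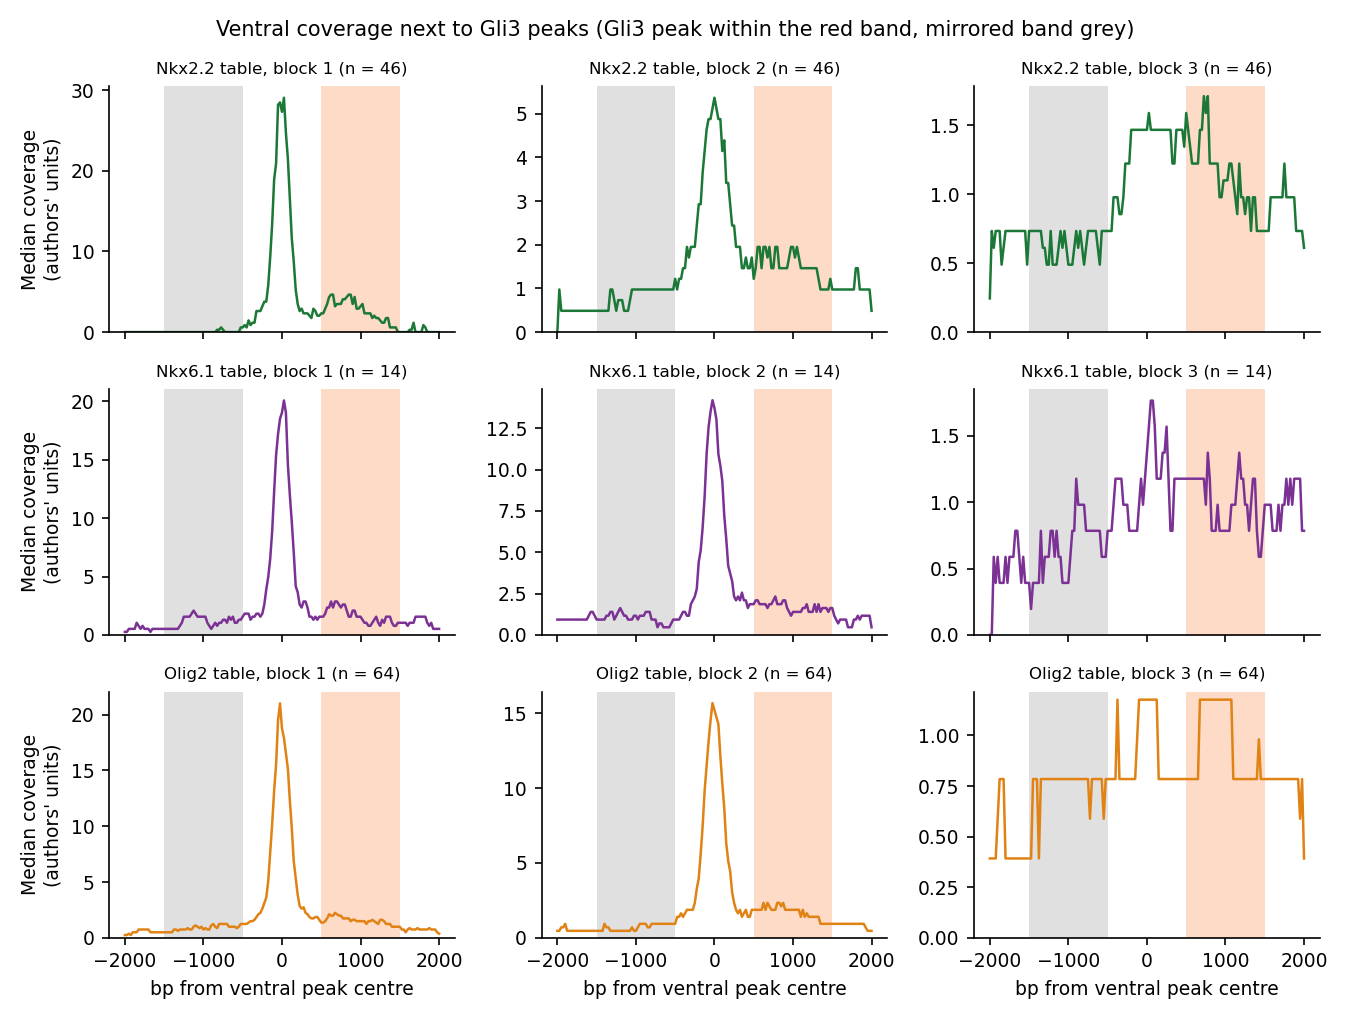
Median coverage (vertical axis, authors' units) by distance from the ventral peak centre (horizontal axis, bp) for ventral peaks with a Gli3 peak away from ventral peaks 500 to 1500 bp from the centre, turned so that the Gli3 peak lies to the right, with the range of Gli3 places in red and the mirrored range in grey. Rows are the Nkx2.2 (n = 46), Nkx6.1 (n = 14) and Olig2 (n = 64) tables and columns the 3 blocks. In block 1, coverage in the red band is mostly above that in the grey band and below the central peak.

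Nearer to the ventral centre, at 300 to 500 bp, the windows reach into the shoulder of the ventral peak. At the smaller of these distances they reach into the called ventral peak itself. There block 1 medians were 7.0 units at the Gli3 place and 4.84 at the mirrored place for Nkx2.2 (36 places), 4.04 and 2.84 for Nkx6.1 (13 places) and 3.28 and 2.36 for Olig2 (40 places). Coverage was higher at the Gli3 place in 23 of 36 pairs for Nkx2.2 (63.9%, 46.2 to 79.2), 10 of 13 for Nkx6.1 (76.9%, 46.2 to 94.96) and 31 of 40 for Olig2 (77.5%, 61.5 to 89.2). For Nkx2.2 and Nkx6.1 these intervals also include an even split. In the same order, block 2 was higher in 27 of 36, 9 of 13 and 30 of 40 pairs. Block 3, the lowest block, was higher in 23 of 36, 10 of 13 and 32 of 40 (80.0%, 64.4 to 90.9 for Olig2). The highest single values of block 1 came from this range in each table. The Gli3 peak on chromosome 16 at 29657983 to 29658282, place 101, had 46.4, 45.2 and 1.47 units in blocks 1 to 3 of the Olig2 table, against 20.5, 7.44 and 0.667 at the mirrored place. The Gli3 peak on chromosome 9 at 37261839 to 37262138, place 71, had 25.6 units in block 1 of the Nkx6.1 table and 39.7 in block 1 of the Olig2 table, against 4.88 and 12.9 at the mirrored places. In the Nkx2.2 table the highest was 16.8 units, on chromosome 10 at 79896453 to 79896752, against 0.378 at the mirrored place. The windows at these Gli3 places took in part of the called ventral peak. In block 1 the centres of those ventral peaks had 65.0 units on chromosome 16 (Olig2) and 21.9 on chromosome 10 (Nkx2.2). On chromosome 9 they had 38.9 (Nkx6.1) and 83.4 (Olig2). Since these regions were picked for high coverage at the Gli3 place, the difference from the mirrored place is a description of them. Among the 5 highest of each table, block 1 was lower at the Gli3 place than at the mirrored place in 1 region, on chromosome 8 at 72520438 to 72520737, with 14.2 and 18.3 units in the Nkx2.2 table. Block 2 was lower in 1 region, on chromosome 13 at 60272784 to 60273083, with 6.33 and 6.58 units in the Nkx6.1 table.

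The ventral peaks next to the regions had lower medians in block 1 than those under a Gli3 peak. Olig2 peaks that were the nearest within 1000 bp of such a region had a median of 11.6 units in block 1 and 12.0 in block 2 (79 peaks), against 16.0 and 19.0 for Olig2 peaks at a Gli3 peak (374 peaks) and 11.3 and 8.44 for all Olig2 peaks. For Nkx2.2 the block 1 medians were 15.8 units next to the regions (65 peaks), 18.9 at a Gli3 peak (419 peaks) and 18.4 in the whole list. For Nkx6.1 they were 10.5 (23 peaks), 13.1 (138 peaks) and 10.4. The quartiles of these groups overlapped in each list: for Olig2 in block 1 they were 7.86 and 18.2 next to the regions, and 10.00 and 30.6 at a Gli3 peak.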

How the data were processed

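The build mm9 and the tools HOMER and Bowtie2 2.2.4 appear in the submitters' processing notes without their roles. Settings, thresholds, pooling and the order of the lists are not given in the sources used here. Peak lists (chromosome, start and end, with no other value) and coverage tables were deposited. Per the file headers, the tables run from -2000 to 2000 bp every 25 bp, 3 times over, and no block is tied to a library. Values of these tables are the authors' coverage score, of unknown scaling and depth. Samples were grouped by their titles, and inputs had no file of their own here.

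Peaks were at ventral peaks when they shared at least 1 bp. Coordinates are printed 1-based. Distances run between centres. Shares carry 95% exact Clopper-Pearson intervals and medians their exact order-statistic intervals. Rows of a table were paired with peaks by line number, and offsets to increasing coordinates: at a neighbouring peak of the same list, 400 to 1500 bp away, block 1 coverage exceeded that of the mirrored place in 117 of 118, 88 of 89 and 535 of 544 pairs (Nkx2.2, Nkx6.1, Olig2). Planned motif and gene annotation needed a genome of mm9 and were not run. The members, rules and comparisons were chosen with earlier results of these data known. The named regions are the 5 first, last, nearest and farthest, the 5 others that shared fewest bases, the 5 of highest block 1 coverage per table, of which some are given, and the 2 fullest windows of 100 kb. Python 3.11.15, pandas 2.3.3, numpy 2.4.6 and scipy 1.17.1 were used, and scripts were tested on simulated data.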

Additional observations from a re-analysis of the deposited data

How the results depend on the processing

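The share of Gli3 peaks away from ventral peaks (63.7%) was 70.6% when overlap needed 150 bp, 75.3% when it needed centres within 100 bp, 56.4% with centres within 1000 bp counted as overlapping, and 78.3% or 74.3% without the Nkx2.2 or the Olig2 list. With these last 3 settings, in that order, the median distance was 31622 bp, 42325 bp and 51569 bp, the share in the first of 3 parts of the list 48.4%, 67.0% and 70.8%, and that in the last part 64.7%, 90.0% and 78.7%, so the last part stayed above the first in each. Without the Olig2 list the median place was 982.5, and without chromosomes 8 and Y the median distance to another Gli3 peak was 162888 bp. Measured against the outermost 250 bp in place of the mirrored place, Olig2 block 1 was higher at 85.9% of the Gli3 places. The other 70 of 87 recomputed values stayed within the interval of the reported value, or, for numbers of peaks, within 1.5 times it. Counting Gli3 peaks that share bases once, using each ventral peak once and leaving out ventral peaks with close neighbours were added after seeing the data. Motif and gene alternatives were not run. Depth is unknown, so coverage near 1 unit cannot be given a counting error. No paired analysis was possible because Gli3 has 1 library and the columns name no replicate.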
